A study of Ovis aries with 23 samples.

Results

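Genes of the extracellular matrix and of cell adhesion were followed in the pars tuberalis (PT) of sheep: COL2A1 (ENSOARG00000019333), NCAN (ENSOARG00000008924), GPR56 (ENSOARG00000000517), and ADAMTS16 (ENSOARG00000015446). They are 4 of the 25197 Ensembl genes counted in each sample and were chosen by symbol, with earlier results of these data known. They were found through the symbols that the study pairs with Ensembl identifiers. The PT is a thin layer of pituitary tissue around the stalk that reads the melatonin signal of day length. All animals were castrate (neutered) male Scottish blackface sheep. A first group was held on short photoperiods (SPs, 12 weeks), and the others were moved from SPs to long photoperiods (LPs) for 1, 7, or 28 days. PT RNA was sequenced from 5 SP samples and from 6 samples for each LP day, 23 samples in all, so that each LP day could be set against SPs and against the other LP days. The labels number the samples of a group without naming animals, and p-values measure the spread between these samples. Every group is castrate and male, so gonadal feedback is missing from all of them.

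The extracellular matrix is a meshwork of collagens, proteoglycans, and glycoproteins that holds cells in place and is cut and rebuilt by secreted proteases. COL2A1 encodes the chain of type II collagen, the main fibril-forming collagen of cartilage, and NCAN encodes neurocan, a chondroitin sulfate proteoglycan of the lectican family that binds hyaluronan around neurons and glia. ADAMTS16 encodes a secreted zinc metalloprotease of the ADAMTS family, whose members cut collagen precursors, proteoglycans, or other matrix proteins. GPR56, now also named ADGRG1, is an adhesion G protein-coupled receptor on the cell surface that binds type III collagen and transglutaminase 2. In the PT, thyrotroph cells lie among folliculostellate cells, and the tissue borders on the median eminence, with its tanycytes and nerve endings.

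Total counts per sample ran from 307952 to 4413929, with a median of 3332320. LP day 1 sample 4 was the shallowest, and the next lowest total was 1852503. Taking 3 counts as the lowest detectable level gives 9.74 CPM (read counts scaled to library size) in that sample and 1.62 CPM or less in the others, for counting error only. Between LP day 1 samples 3 and 4 the chi-square per gene was 1.14, where counting noise alone gives about 1 and the median over pairs of samples of a group was 12.2. They were kept as separate samples, and their sum as 1 sample was tried beside them. All 5 PT thyrotroph markers (TSHB, CGA, MTNR1A, CHGA, and EYA3) were paired and detected, with MTNR1A at 0 counts in 1 sample. The 6 paired of 7 pars distalis markers together took 34994 to 272700 CPM, so that RNA of pituitary hormone cells outside the PT was measured in every library. Fewer cells of a type and less RNA per cell cannot be told apart in such bulk samples.

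ADAMTS16 was the only one of the 4 genes that passed the test in any comparison, and it was high at LP day 7. In the SP samples it had 0.265, 0.339, 2.02, 0.648, and 1.69 CPM (mean 0.993 ± 0.809, SD, n = 5). At LP day 1 it lay between 0 and 1.87 CPM with a median of 1.29 (mean 1.20 ± 0.708, SD, n = 6). At LP day 7 the 6 samples had 10.2, 4.45, 4.81, 5.64, 10.2, and 6.52 CPM (mean 6.96 ± 2.58, SD). Every LP day 7 value was above every value of the other 3 groups. The value of 0 at LP day 1 is that of sample 4, where the lowest detectable level of 9.74 CPM is above 4 of the 6 LP day 7 values, so that this sample cannot be ranked below them. At LP day 28 the level lay between 0.484 and 3.08 CPM with a median of 2.33 (mean 2.06 ± 1.04, SD, n = 6). These levels rest on few reads, with 17 counts summed over the SP samples and 22, 146, and 39 over those of LP days 1, 7, and 28.

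From SPs to LP day 7, ADAMTS16 rose by 2.75 on the log2 scale (SE 0.45), a 6.71-fold change. The p adjusted by Benjamini and Hochberg's method was 0.0232 in edgeR's quasi-likelihood test, which ranked 11 by p among the 15030 genes tested. Of the 4 genes, this 1 passed, beside 0.266% of all genes tested in either direction and 0.193% that were higher at LP day 7. The 4 were chosen with earlier results of these data known, from symbols of genes that the study listed as changed. Their counts beside those of all genes are therefore not independent evidence. In each comparison with LP day 7, ADAMTS16 reached the level required for testing, more than 1 CPM in enough samples, only through its LP day 7 samples. It thus entered these tests through the group where it was high. Between LP days 1 and 7 it rose by 2.25 (SE 0.36, adjusted p = 0.0301), again the only 1 of the 4, beside 0.0201% of all genes. Leaving out LP day 1 sample 4 as unranked, the LP day 7 values overlapped neither group. No overlap was found for 2.04% of all genes against SPs and, with sample 4 taken at its value, for 0.269% against LP day 1. Between LP day 7 and LP day 28 the log2 difference was -1.71 (SE 0.35). The groups did not overlap here either, as for 0.363% of all genes, but with an adjusted p of 0.128 the difference did not pass, where 0.00672% of genes did. The value at LP day 28 was 1.03 above SPs on the log2 scale (SE 0.55, adjusted p = 0.429), and 4 of its 6 samples were above all SP samples. LP day 1 was 0.47 above SPs (SE 0.56, adjusted p = 1.00).

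The means of ADAMTS16 were in the order LP day 7, LP day 28, LP day 1, and SPs. In edgeR's quasi-likelihood test LP day 7 differed from SPs and from LP day 1 but not from LP day 28 (adjusted p = 0.128). LP day 28, LP day 1, and SPs did not differ from one another in that test. Pooled over the samples of a group, the level was 7.27 CPM at LP day 7, with a 95% Poisson interval of 6.14 to 8.55 that covers counting error only. The corresponding intervals were 0.594 to 1.63 CPM on SPs, 0.905 to 2.19 CPM after 1 day of LPs, and 1.43 to 2.75 CPM after 28 days. Counting error was thus smaller than the step to LP day 7. The call against SPs was lost without SP sample 1, 2, or 4 or LP day 7 sample 1 or 5, while the log2 value then stayed between 2.48 and 2.63. With LP day 1 samples 3 and 4 summed, the step from LP day 1 to LP day 7 was 2.24 with an adjusted p of 0.0666.

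**Figure D1:**
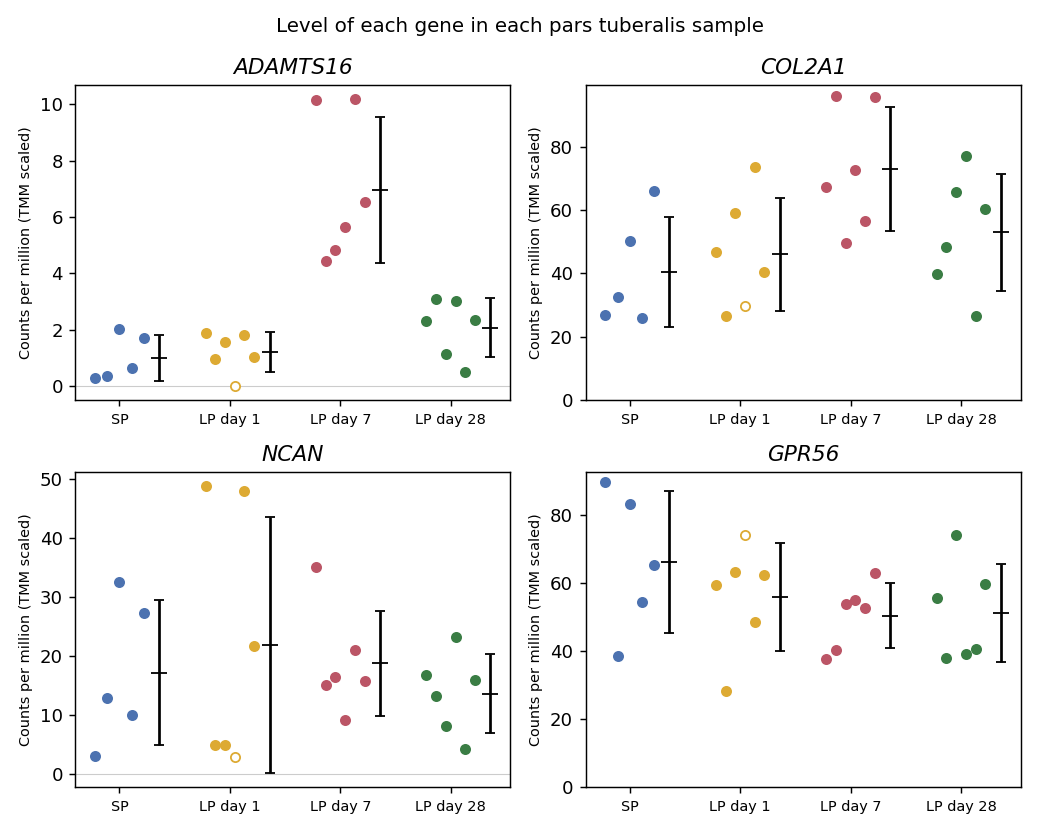
TMM-scaled CPM (y axis, linear, from 0) of ADAMTS16, COL2A1, NCAN, and GPR56 in each sample of SPs and LP days 1, 7, and 28 (x axis); points are samples, the open point is LP day 1 sample 4, and bars are mean ± SD. ADAMTS16 at LP day 7 (4.45 to 10.2 CPM) lies above every other plotted value, with the open point at 0 counts, while the groups overlap for COL2A1, NCAN, and GPR56.

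COL2A1 had its highest mean at LP day 7 as well, but the groups overlapped and no comparison passed. The SP samples had 27.0, 32.5, 50.2, 25.9, and 66.0 CPM (mean 40.3 ± 17.3, SD, n = 5). The LP day 1 samples ran from 26.6 to 73.6 CPM with a median of 43.7 (mean 46.0 ± 17.9, n = 6). At LP day 7 they had 67.3, 95.9, 49.6, 72.8, 56.5, and 95.7 CPM (mean 73.0 ± 19.4, n = 6). Samples 1, 2, 4, and 6 were above all SP samples, and the lowest, sample 3, was below SP sample 3. The LP day 28 samples ran from 26.6 to 77.0 CPM with a median of 54.3 (mean 53.0 ± 18.4, n = 6). The log2 difference from SPs was 0.85 (SE 0.24, adjusted p = 0.127) at LP day 7, whereas it was 0.39 (SE 0.26, adjusted p = 0.538) after 28 days and 0.23 (SE 0.27, adjusted p = 1.00) after 1 day. For LP day 7 the interval of 2 SE ran from 0.36 to 1.33, and the unadjusted p was 0.00317. The order of the means, LP day 7, LP day 28, LP day 1, and SPs, was that of ADAMTS16, and no neighbours in it passed the test. LP day 7 stood 0.60 above LP day 1 (SE 0.22, adjusted p = 0.882), and the difference of LP day 28 from LP day 7 was -0.45 (SE 0.21, unadjusted p = 0.0488, adjusted p = 0.700 by edgeR's test), with an interval of 2 SE from -0.87 to -0.025.

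The means of COL2A1 also differed between even and odd sample numbers, in opposite directions among the groups, and the test of this within LP days 7 and 28 did not pass. At LP day 7 the samples with even numbers had a mean of 88.1 CPM and those with odd numbers 57.8 CPM, and after 28 days the means were 61.9 and 44.02 CPM. On SPs the order was the other way, with 29.2 CPM for even and 47.7 CPM for odd numbers, and likewise at LP day 1, with 32.3 and 59.8 CPM. Such splits were not particular to COL2A1. GPR56 on SPs had 46.5 CPM for even and 79.5 CPM for odd numbers. NCAN had 9.92 and 34.0 CPM for even and odd numbers at LP day 1, and 17.5 and 9.82 CPM at LP day 28. The labels do not say what the number stands for. Within LP days 7 and 28, the log2 difference of even over odd numbers was 0.54 for COL2A1 (SE 0.17, adjusted p = 0.197). In that comparison 1.02% of all genes passed and none of the 4 genes did, with COL2A1 the only one at an unadjusted p under 0.05, as were 1503 of 14890 genes. With the parity of the number as a covariate, COL2A1 at LP day 7 was 0.82 above SPs with an adjusted p of 0.116, close to the value without it.

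GPR56 had its highest mean on SPs. The SP samples had 89.8, 38.6, 83.4, 54.4, and 65.5 CPM (mean 66.3 ± 20.9, SD, n = 5). The LP day 1 samples ran from 28.1 to 74.2 CPM with a median of 61.0 (mean 56.0 ± 15.95), those of LP day 7 from 37.7 to 63.1 CPM with a median of 53.3 (mean 50.5 ± 9.62), and those of LP day 28 from 38.0 to 74.2 CPM with a median of 48.2 (mean 51.2 ± 14.5, n = 6 each). SP samples 1 and 3 were above all 18 LP samples, whereas SP sample 2 was among the lowest of all. The log2 difference from SPs was -0.30 after 1 day of LPs (SE 0.23, adjusted p = 1.00), -0.40 after 7 days (SE 0.19, adjusted p = 0.355), and -0.37 after 28 days (SE 0.21, adjusted p = 0.452). The LP days differed from one another by -0.11 to 0.035 on the log2 scale, and no neighbours in the order SPs, LP day 1, LP day 28, and LP day 7 differed beyond their spread. The intervals of 2 SE against SPs reached from -0.79 to -0.016 at LP day 7 and from -0.79 to 0.043 at LP day 28.

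NCAN varied more within the groups than between them. The SP samples had 3.18, 12.9, 32.6, 10.05, and 27.4 CPM (mean 17.2 ± 12.3, SD, n = 5). At LP day 1 the samples had 48.9, 5.00, 4.99, 2.97, 48.1, and 21.8 CPM (mean 21.95 ± 21.6, n = 6), of which 2.97 CPM is a single count in LP day 1 sample 4. Samples 1 and 5 of LP day 1 were thus the highest of all 23, and samples 2, 3, and 4 were among the lowest. At LP day 7 the level lay between 9.13 and 35.1 CPM with a median of 16.2 (mean 18.8 ± 8.85), and at LP day 28 between 4.36 and 23.2 CPM with a median of 14.7 (mean 13.7 ± 6.68, n = 6 each). The log2 difference from SPs was 0.48 after 1 day of LPs (SE 0.59, adjusted p = 1.00), 0.12 after 7 days (SE 0.43, adjusted p = 0.933), and -0.32 after 28 days (SE 0.44, adjusted p = 0.799). The difference between LP day 1 and LP day 28, the largest for this gene, was -0.80 (SE 0.49, adjusted p = 0.723), and no neighbours in the order LP day 1, LP day 7, SPs, and LP day 28 differed beyond their spread.

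For 0 of the 4 genes did LP day 1 differ from SPs in edgeR's quasi-likelihood test, and none had an unadjusted p under 0.05. Of all 14920 genes tested there, 0 passed and 497 had an unadjusted p under 0.05, and DESeq2 called 2. At LP day 28 against SPs, 0 of the 4 passed, where 0.67% of all genes did, and none had an unadjusted p under 0.05. Between LP day 1 and LP day 28, 0 of the 4 passed, where 0.216% of all genes did. DESeq2 called none of the 4 in these 3 comparisons and gave no adjusted p for ADAMTS16 at LP day 28 against SPs. The spread itself differed among the genes. The biological coefficient of variation within groups, which edgeR estimates beyond counting error, was 0.611 for NCAN, 0.317 for ADAMTS16, 0.305 for COL2A1, and 0.248 for GPR56, against a median of 0.198 over 15705 genes. Among the genes nearest in level, NCAN was at percentile 99.1 of this spread, COL2A1 at 97.0, GPR56 at 92.8, and ADAMTS16 at 41.2.

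**Figure D2:**
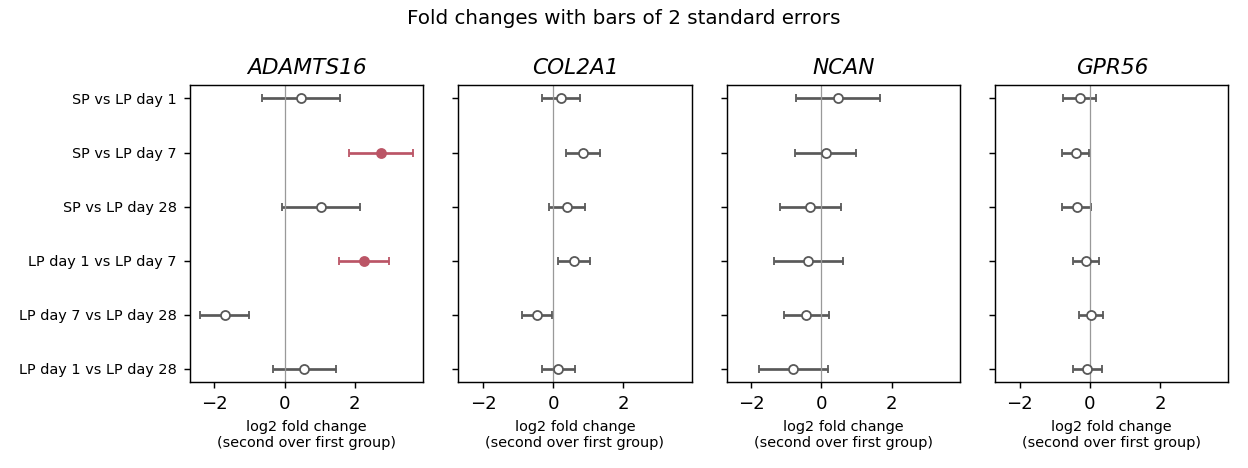
Log2 fold change (x axis, second over first group) of ADAMTS16, COL2A1, NCAN, and GPR56 in the 6 comparisons of groups (y axis), with bars of 2 standard errors; filled red points passed an adjusted p of 0.05. Only ADAMTS16 passed, at 2.75 for SPs against LP day 7 and 2.25 for LP day 1 against LP day 7, and the bars of NCAN are the widest of the other 3 genes.

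The levels of NCAN moved with markers of neural tissue. GFAP, the intermediate filament of astrocytes and tanycytes and the only 1 of 7 such markers that was paired, ran from 47.8 to 832 CPM. Over 22 samples, without LP day 1 sample 4, log2 CPM of NCAN and GFAP had a Pearson r of 0.877 and a Spearman rho of 0.902, both at the smallest p that 100000 permutations can give, 1e-05. After adjustment over 32 relations between the 4 genes and 8 marker lists, the Pearson and Spearman p were 0.00032 and 0.00016. Within groups r was 0.903. It was 0.878 without the 2 samples farthest from the median of GFAP, LP day 1 samples 2 and 5, and 0.923 and 0.777 among sample numbers 1 to 3 and 4 to 6. MBP, a myelin protein of oligodendrocytes and the only 1 of 8 paired, gave r = 0.811 and rho = 0.846. For the 2 of 7 paired neuron markers (STMN2 and NEFM, 354 to 673 CPM summed) r was 0.605 (adjusted p = 0.0304) and rho 0.464 (adjusted p = 0.166). None of these markers was at 0 in any sample, and no other relation of the 32 passed.

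GFAP had a median of 243 CPM on SPs and of 180, 346, and 267 CPM after 1, 7, and 28 days of LPs, and its ranges overlapped in all groups. With the summed neural markers as a covariate, the NCAN difference from SPs was -0.018, 0.15, and 0.025 after 1, 7, and 28 days of LPs, and between LP day 1 and LP day 28 it was -0.0038, in place of -0.80. The share of neural tissue in a sample and the level of NCAN per cell cannot be told apart in these samples.

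No relation of the other 3 genes to a marker list passed. For ADAMTS16, the relation to GFAP had r = 0.402 over the 22 samples and 0.565 within groups, where rho was 0.669. To the summed PT thyrotroph markers r was -0.483, and -0.220 within groups. Most of that sum was CGA and CHGA, with means of 8384 and 3384 CPM on SPs. From SPs to LP day 7 the mean of CGA went to 6970 CPM and that of CHGA to 1534 CPM, and that of EYA3 went from 31.9 to 299 CPM. For COL2A1 r was 0.463 with GFAP, 0.457 with the neuron markers, and 0.421 with MBP. Within groups these values were 0.487, 0.536, and 0.506. With the summed fibroblast markers r of COL2A1 was 0.196, and with the pars distalis markers -0.0718. GPR56 had r = 0.181 with GFAP and -0.488 with the folliculostellate markers S100B and ALDH1A1, 2 of 5 paired. With the neural markers as a covariate, ADAMTS16 was 2.73 above SPs at LP day 7 with an adjusted p of 0.0125, and with the pars distalis markers 2.78 above with an adjusted p of 0.0189.

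Over all 22 samples, COL2A1 and ADAMTS16 were the pair among the 4 genes whose levels were related in the test, which takes no account of the groups. Both had their highest mean at LP day 7. Here r was 0.711 and rho 0.663, with permutation p adjusted over 6 pairs of 0.00168 and 0.00684. Within groups r was 0.541 and rho 0.455, below those of NCAN and ADAMTS16 (0.708 and 0.731), with no test of either. For COL2A1 and ADAMTS16, among sample numbers 1 to 3 and 4 to 6 it was 0.691 and 0.727, and without the 2 samples farthest in COL2A1 it was 0.678. NCAN had r = 0.485 with COL2A1 and 0.458 with ADAMTS16 (adjusted p = 0.0652 and 0.0653), and the latter was 0.264 without the 2 samples farthest in NCAN. GPR56 had r between -0.142 and 0.0827 with the other 3. Counts near 1 to 7 set the low end of ADAMTS16 in these relations.

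**Figure D3:**
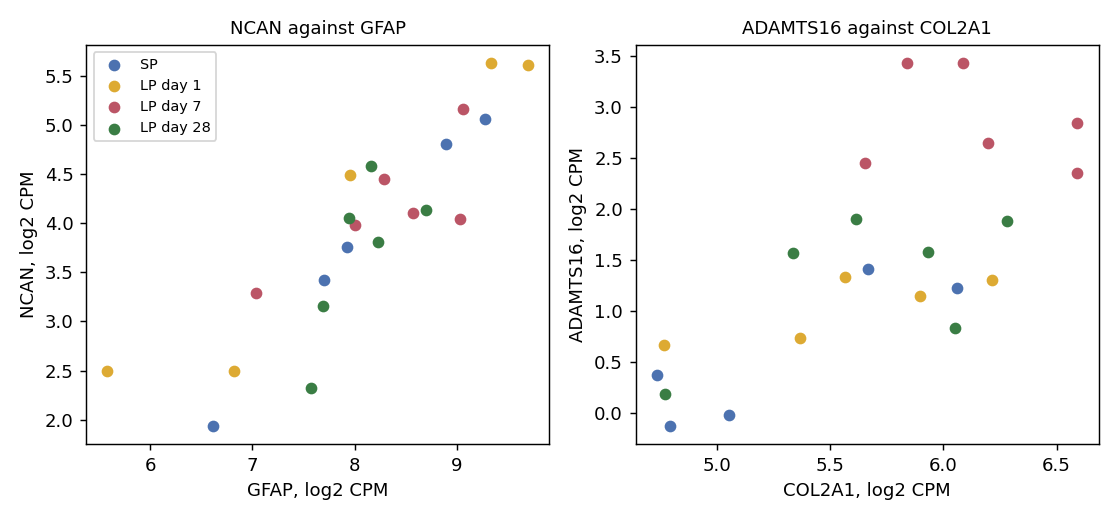
Left, NCAN against GFAP, and right, ADAMTS16 against COL2A1, as log2 CPM in 22 samples (LP day 1 sample 4 left out); colours mark SPs and LP days 1, 7, and 28. NCAN follows GFAP across all groups (r = 0.877), while on the right the 6 LP day 7 samples sit above the others in ADAMTS16, 4 of them at COL2A1 levels within the range of the other groups and 2 above it (r = 0.711).

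The genes with a symbol whose log2 CPM was most like that of each gene were listed over the same 22 samples, from 1124 genes, as a description. For NCAN they were AK5, an adenylate kinase of brain (r = 0.948), ADCYAP1, which encodes the neuropeptide PACAP (r = 0.935), and BCAN, which encodes the brain lectican brevican (r = 0.934). Within groups these 3 r values were 0.946, 0.948, and 0.940. For COL2A1 they were GLUL, glutamine synthetase (r = 0.836), TRH, the precursor of thyrotropin-releasing hormone (r = 0.834), and TMOD1, a tropomodulin that caps actin filaments (r = 0.821), with 0.750, 0.754, and 0.755 within groups. For ADAMTS16 they were PLXNA4, a semaphorin receptor (r = 0.863), DCT, a melanin enzyme (r = 0.840), and SHH, the sonic hedgehog morphogen (r = 0.827). Within groups these 3 r values were 0.513, 0.485, and 0.525. For GPR56 they included MSI1, an RNA-binding protein (r = 0.707), and L1CAM, a neural cell adhesion molecule (r = 0.612). Depth and tissue makeup differ among these samples, and their part in these values was not tested.

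A total of 13 lists of matrix and adhesion genes were set beside the 4, holding 220 genes, of which 48 could be paired with an identifier and all 48 were tested. Genes have a symbol here because the study listed them as changed in one of its comparisons, some of them on these samples, so their counts are not independent evidence. Of the 44 that are not among the 4, 0 passed at LP day 1 against SPs, 2 were called higher at LP day 7 and 4 at LP day 28, and none was called lower. Of all genes, 0.193% were called higher after 7 days of LPs and 0.422% after 28. The median log2 difference of the 44 from SPs was 0.079, 0.032, and 0.20 at LP days 1, 7, and 28, beside 0.0018, -0.0070, and -0.0066 over all genes.

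Among the lecticans and their partners, with 5 of 13 paired, none passed in any comparison, and neither did NCAN. BCAN averaged 76.8 ± 55.0 CPM in SP samples against 49.4 ± 19.7 CPM after 28 days (log2 difference -0.63, SE 0.39, adjusted p = 0.513). ACAN, the cartilage lectican aggrecan, averaged 5.48 ± 1.503 CPM at LP day 7 against 3.101 ± 1.18 CPM after 28 days (-0.78, SE 0.29, adjusted p = 0.609). CSPG5, a brain proteoglycan, differed by -0.49 between the same days (adjusted p = 0.724). The list's median difference between LP day 1 and LP day 28 was -0.75, with 1 of 5 positive.

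Of the fibrillar collagens, 8 of 11 were paired, and none passed. In all, 7 of the 8 were higher at LP day 28 than on SPs, with a median log2 difference of 0.54 and 6 at an unadjusted p under 0.05, as were 2063 of all 14929 genes. At LP day 7 all 8 were positive, with a median of 0.19. COL5A2, a chain of type V collagen, averaged 124 ± 35.1 CPM in SP samples against 260 ± 112 CPM after 28 days (1.07, SE 0.24, adjusted p = 0.0503). COL3A1, the type III collagen chain that GPR56 binds, averaged 357 ± 74.2 CPM at LP day 1 against 532 ± 106 CPM after 28 days (0.57, SE 0.14, adjusted p = 0.168). COL1A1, of type I collagen, differed by 0.46 between these days (adjusted p = 0.213). The summed fibroblast markers, 5 of 6 paired, which hold 3 of these collagens, had medians of 1823 CPM on SPs and 1968, 1980, and 2376 CPM after 1, 7, and 28 days of LPs, and with them as a covariate COL2A1 was 0.15 above SPs at LP day 28 in place of 0.39. Their part in the values of the other collagens was not tested. COL2A1 itself had its highest mean at LP day 7.

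Collagens that sit on fibrils were 5 of 10 paired, with none passing. COL9A3, a chain of type IX collagen that coats type II fibrils, averaged 46.0 ± 25.9 CPM on SPs, 22.6 ± 8.63 CPM after 7 days of LPs, and 18.2 ± 4.98 CPM after 28 (-1.34, SE 0.31, adjusted p = 0.0604 against SPs). Another chain of the same collagen, COL9A1, stood 0.36 higher at LP day 28 than at LP day 7 (adjusted p = 0.664), and COL22A1 differed from SPs by -0.45 at LP day 28, with an adjusted p of 0.239. In the list of SOX9 and its cartilage targets, with 6 of 15 paired, COL2A1, COL9A3, and COL11A1 (0.62 above SPs at LP day 28, SE 0.17, adjusted p = 0.107) had the smallest p and none passed. Differences of both signs thus stood among these cartilage genes.

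Of 3 paired basement membrane genes out of 23 and 5 of 13 small leucine-rich proteoglycans, none passed. LAMB2, a laminin chain, differed by -0.40 between LP days 1 and 7 (adjusted p = 0.741), and NID2 and LAMA5 were 0.29 and 0.19 higher at LP day 28 than at LP day 7. PODN, podocan, averaged 27.0 ± 5.74 CPM in SP samples against 45.0 ± 10.3 CPM after 28 days (0.73, SE 0.18, adjusted p = 0.0634). DCN, decorin, and FMOD, fibromodulin, differed by 0.24 between LP days 7 and 28 and by -0.46 between LP days 1 and 28, with adjusted p of 0.648 and 0.593. No gene of the 15 that make and cross-link collagen could be paired.

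Of the ADAMTS proteases and their relatives without protease activity, 6 of 25 were paired, and ADAMTS16 was the only one that passed. All 6, ADAMTS16 among them, had a positive difference from SPs at LP days 1 and 7, with a median of 0.43 at LP day 7. Over all genes that median was -0.0070. Some of the 6 were near 0, as ADAMTSL1 at LP day 1 (0.024, SE 0.29) and LP day 7 (0.0022, SE 0.27) and ADAMTS14 at LP day 7 (0.11, SE 0.53). After 28 days the median was 0.80, with 5 of 6 positive. ADAMTS19 and ADAMTS14 had their highest means at LP day 28 and not at LP day 7. ADAMTS19 averaged 2.33 ± 1.07 CPM on SPs, 3.48 ± 1.17 CPM after 7 days of LPs, and 7.92 ± 3.63 CPM after 28 (1.76, SE 0.41, adjusted p = 0.0597 against SPs). ADAMTS14, which trims fibrillar procollagens, had 1.35 ± 0.794, 1.41 ± 0.906, and 4.27 ± 2.84 CPM in these groups, with an adjusted p of 0.170 at LP day 28. Among other proteases and inhibitors, 5 of 30 paired, SERPINE2, which inhibits thrombin and plasminogen activators, passed. It rose from 186 ± 36.1 CPM on SPs to 322 ± 79.8 CPM at LP day 28 (0.78, SE 0.16, adjusted p = 0.0308). Without SP sample 1 or 2 or LP day 28 sample 4, 5, or 6, its adjusted p was between 0.0504 and 0.0902. The call was also lost with fibroblast markers (adjusted p = 0.171) or pars distalis markers (0.0883) as a covariate, all 4 groups in 1 fit (0.133), SP samples 2, 3, and 5 alone (0.0909), library size alone (0.0604), the sample number as a block (0.0539), robust estimation (0.0521), and sample numbers 1 to 3 (0.219) or 4 to 6 (0.163) alone.

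Adhesion receptors of the GPR56 family were 5 of 29 paired, and none passed. GPR144 averaged 1.76 ± 1.18 CPM in SP samples against 5.34 ± 1.74 CPM after 7 days (1.57, SE 0.40, adjusted p = 0.0971). GPR126, a collagen receptor of Schwann cells, was 0.74 higher at LP day 28 than at LP day 7 (adjusted p = 0.549). Of 10 listed ligands and partners of GPR56, 2 were paired, COL3A1 and TGM2, and neither passed. TGM2, transglutaminase 2, averaged 36.01 ± 10.1 CPM in SP samples against 30.1 ± 6.90 CPM after 7 days (-0.27, adjusted p = 0.591). The single paired integrin of 18, ITGA4, differed from SPs by 0.35 at LP day 1 (adjusted p = 1.00).

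Neural cell adhesion genes, 4 of 17 paired, held the other calls. CNTN1, contactin 1 of axons and myelinating glia, rose from 150 ± 17.7 CPM on SPs to 282 ± 48.4 CPM at LP day 7 (0.91, SE 0.12, adjusted p = 0.00335) and 309 ± 87.1 CPM at LP day 28 (1.05, SE 0.16, adjusted p = 0.00359). LP day 28 was above LP day 1 too, by 0.79 with an adjusted p of 0.0442, a call that was lost without LP day 1 sample 1, 3, 4, 5, or 6 or LP day 28 sample 1, 2, or 6, and with LP day 1 samples 3 and 4 summed (adjusted p = 0.137), voom, library size alone, another filter, robust estimation, pars distalis markers, fibroblast markers, or sample numbers 1 to 3 or 4 to 6 alone (adjusted p between 0.0536 and 0.733). CNTN2, contactin 2, rose from 40.9 ± 9.95 CPM on SPs to 96.2 ± 24.9 CPM at LP day 7 (1.23, SE 0.19, adjusted p = 0.0131) and was 0.97 above SPs at LP day 28 (adjusted p = 0.0104). Without SP sample 2 or 4 its adjusted p at LP day 7 was 0.0509 and 0.0544. NFASC, neurofascin, rose from 61.5 ± 15.7 CPM on SPs to 117 ± 21.0 CPM at LP day 28 (0.92, SE 0.16, adjusted p = 0.0113), and at LP day 7 had 120 ± 31.3 CPM with an adjusted p of 0.0554. NFASC also differed by sample number within LP days 7 and 28, by -0.52 for even over odd numbers (adjusted p = 0.00717, or 0.0530 with library size alone). With fibroblast markers as a covariate, the calls at LP day 28 were lost for CNTN2 (adjusted p = 0.121) and NFASC (0.169). With SP samples 2, 3, and 5 alone, those lost were CNTN1 (0.0725) and CNTN2 (0.108) at LP day 7 and CNTN2 (0.0763) and NFASC (0.0562) at LP day 28. With sample numbers 4 to 6 alone, all of these calls against SPs were lost, and with numbers 1 to 3 alone those of CNTN1 and CNTN2 at LP day 7 and NFASC at LP day 28. L1CAM did not pass. The neural markers GFAP and MBP and the sum of STMN2 and NEFM overlapped between all groups. The mean of STMN2 was lower after 28 days of LPs (109 CPM) than in the SP samples (160 CPM). That of NEFM was higher (368 against 307 CPM). Of these 2 neuron markers, 1 had an unadjusted p under 0.05 in edgeR's test of LP day 28 against SPs, and 0 passed. NCAN, a neural matrix gene, differed from SPs by 0.12 at LP day 7. With the summed neural markers as a covariate, the calls against SPs of CNTN1 and CNTN2 at LP days 7 and 28 and of NFASC at LP day 28 were kept. That covariate holds only GFAP, MBP, STMN2, and NEFM. What part the share of neural tissue itself had in these rises was not tested.

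**Figure D4:**
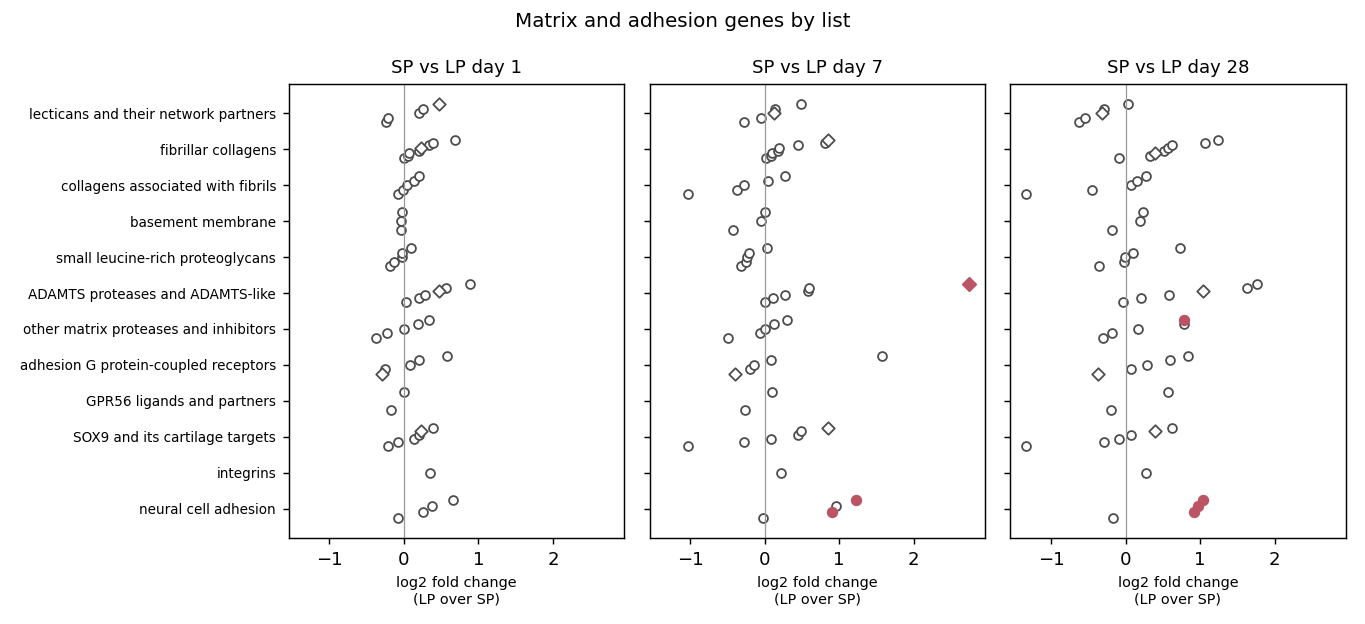
Log2 fold change (x axis, LP over SP) of the 48 paired matrix and adhesion genes, in rows by list (y axis; a gene in 2 lists appears in both), at LP days 1, 7, and 28; diamonds are COL2A1, NCAN, GPR56, and ADAMTS16, and filled red symbols passed an adjusted p of 0.05. No symbol is filled at LP day 1, ADAMTS16 and 2 neural adhesion genes are at LP day 7, and SERPINE2 and 3 neural adhesion genes are at LP day 28.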

How the data were processed

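PT RNA of 23 samples was sequenced, and the authors deposited raw counts of reads per Ensembl gene, 1 table a sample. The submitters' processing notes name Bowtie, HTSeq, and the sheep build Oar_v3.1, whereas the file headers have the form that featureCounts writes, and the program that counted was not settled. Whether strand was used is not given in the sources used here. The headers give each sample a library number, and these numbers repeat between sample numbers 1 to 3 and 4 to 6, called the library set.

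Groups were taken from the sample labels. Symbols came from the name columns of the study's supplementary tables, which pair 1259 of the 25197 genes. No genome of this build was used here, and no positions or sequences are given. The members and lists were chosen with earlier results of these data known. Genes named beside the members are the 3 most alike of each (1 of those of GPR56 is not reported here), and from each list all called genes or, where none was called, up to 3 with the smallest p. Markers of astrocytes and tanycytes, neurons, oligodendrocytes, pars distalis cells, fibroblasts, folliculostellate cells, leukocytes, and PT thyrotrophs were summed as CPM, and no endothelium marker of 6 could be paired.

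Tests used edgeR 4.0.16 (R 4.3.3). Only the groups compared entered a fit, with TMM normalization over their samples. A gene was tested if it exceeded 1 CPM in a number of samples not below the size of the smaller group, and the quasi-likelihood test was adjusted by the Benjamini-Hochberg method over all genes tested. A gene passed at an adjusted p under 0.05. The SE was taken as the size of the log2 fold change over the root of F. CPM values of single samples were TMM-scaled over all 23 samples, and correlations used log2 CPM with a prior count of 2 and two-sided permutation tests. Even and odd sample numbers were compared within LP days 7 and 28 with the LP day as a term.

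The test was checked on data simulated for SPs against LP day 7 (14916 genes, of which 200 were changed). It recovered 87.5% of the changed genes, and 5.41% of its calls were unchanged genes. Of the 55 changed genes under 10 CPM it recovered 16.7% of those changed 2-fold and 95% of those changed 6-fold. These 55 take in mean levels up to 10 CPM, so the shares do not measure recovery at the SP level of ADAMTS16, 0.993 CPM. The simulated counts were drawn from the dispersion fitted to each gene and hold no differences by sample number or tissue makeup. These shares therefore do not cover such differences in the real samples.

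Alternatives were 2 exact tests of edgeR, DESeq2 1.42.0, voom of limma 3.58.1 with quality weights for samples, 3 other normalizations, 2 other filters, 1 fit of all groups, robust estimation, and each sample left out. Others were the sample number as a block, its parity, pars distalis markers, or neural markers as covariates, SP samples 2, 3, and 5 alone (the set closest to the study's own comparison in earlier work on these data), and LP day 1 samples 3 and 4 summed. The library set and fibroblast markers as covariates and sample numbers 1 to 3 or 4 to 6 alone were chosen after seeing the data.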

Additional observations from a re-analysis of the deposited data

Results flagged for a closer look

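ADAMTS16 differed between LP days in its change from SPs. It was 0.47 above SPs at LP day 1 and 2.75 above SPs at LP day 7 on the log2 scale, and the test of LP day 1 against LP day 7 gave 2.25 (SE 0.36, adjusted p = 0.0301 by edgeR's quasi-likelihood test), with all 6 LP day 7 values above those of 5 LP day 1 samples. LP day 1 sample 4 had 0 counts at a depth that allows up to 9.74 CPM and cannot be ranked. The call was lost in 9 of 12 fits that left out a sample and with LP day 1 samples 3 and 4 summed. None of 16 groups of values of the 4 genes held a sample that stood apart from its group by Dixon's test. That test reads only the gap next to an end value, so it cannot flag samples that stand apart together. NCAN at LP day 1, with 48.9 and 48.1 CPM as its highest values, is such a case.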

How the results depend on the processing

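Alternatives were applied to each of the 4 genes in each comparison. Of the values under other settings, 490 kept their direction and side of the threshold, 9 lost and 7 gained the call, and 19 changed sign. Of those with a sample left out, 291 kept both, 14 lost and 2 gained the call, and 17 changed sign. Where no value shows the cause, it was not tested. ADAMTS16 from SPs to LP day 7 lost the call with voom (2.75, adjusted p = 0.0545), with SP samples 2, 3, and 5 alone (2.29, adjusted p = 0.121), and, with fewer samples, with numbers 1 to 3 (2.81) or 4 to 6 (2.61) alone, and lay between 2.48 and 3.16 with a sample left out. From LP day 1 to LP day 7 it lost the call with voom (2.08), samples 3 and 4 summed (2.24), the library set as a covariate (2.23, adjusted p = 0.0636), and numbers 1 to 3 (2.10) or 4 to 6 (2.42) alone, and lay between 2.11 and 2.38 with a sample left out, keeping the call without LP day 1 sample 5 or LP day 7 sample 2 or 3 only. From LP day 7 to LP day 28 it gained a call in the exact tests (-1.71 and -1.70) and in DESeq2 (-1.72, adjusted p = 0.00592). COL2A1 from SPs to LP day 7 gained one with the common-dispersion exact test (0.85, adjusted p = 0.00146), DESeq2 (0.85, adjusted p = 0.0279), and fibroblast markers (0.85, adjusted p = 0.0231), and lay between 0.72 and 1.09 with a sample left out, called without SP sample 5 (adjusted p = 0.0498). NCAN from LP day 1 to LP day 28 was called only by the common-dispersion test (-0.81, adjusted p = 0.0227). Even against odd numbers, COL2A1 lay between 0.45 and 0.72 with a sample left out, called without LP day 28 sample 3 (adjusted p = 0.0216).

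Apart from NCAN from LP day 1 to LP day 28, changes of sign were found among values that passed in no fit. With SP samples 2, 3, and 5 alone, LP day 1 was -0.024 for NCAN and -0.069 for COL2A1, and NCAN at LP day 7 was -0.38. With neural markers, NCAN was -0.018 at LP day 1 and 0.025 at LP day 28 against SPs and 0.11 from LP day 1 to LP day 7, and GPR56 was -0.015 from LP day 7 to LP day 28. With numbers 4 to 6 alone, NCAN at LP day 7 was -0.29 and GPR56 from LP day 7 to LP day 28 was -0.29, and with numbers 1 to 3 alone NCAN from LP day 1 to LP day 7 was 0.15 and GPR56 from LP day 1 to LP day 28 was 0.16. With voom, NCAN from LP day 1 to LP day 7 was 0.077. GPR56 from LP day 7 to LP day 28 was -0.10 by library size, -0.011 with pars distalis markers, and -0.065 with fibroblast markers. With pars distalis markers GPR56 from LP day 1 to LP day 28 was 0.15 and ADAMTS16 of even over odd numbers was 0.032, and with fibroblast markers NCAN from LP day 1 to LP day 28 was 0.78. With a sample left out, NCAN ranged from -0.16 to 0.49 at LP day 7 and from -0.60 to 0.051 at LP day 28 against SPs, from -0.64 to 0.026 from LP day 1 to LP day 7, and from -0.30 to 0.15 for even over odd numbers. GPR56 ranged from -0.10 to 0.11 from LP day 7 to LP day 28, from -0.22 to 0.0022 from LP day 1 to LP day 28, and from -0.19 to 0.033 for even over odd numbers, and ADAMTS16 from -0.20 to 0.12 for the last.

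Same-numbered samples of 2 groups had correlations of their deviations from the group means between -0.174 and 0.257. Samples with different numbers were not correlated beside them, so whether the numbers pair the samples was not tested. With the number as a replicate block, ADAMTS16 was 2.81 at LP day 7 against SPs (adjusted p = 0.0234) and 2.29 against LP day 1 (adjusted p = 0.0466), and NCAN from LP day 1 to LP day 7 was 0.10. The block moved the genes called from 40 to 178 at LP day 7 against SPs, from 100 to 41 at LP day 28, and from 1 to 6 between LP days 7 and 28. Over all alternatives these counts ran from 4 to 492, 7 to 454, and 0 to 251, from 0 to 68 at LP day 1, 1 to 150 and 6 to 266 between LP day 1 and LP days 7 and 28, and 104 to 264 for even against odd numbers. Exact tests of even against odd numbers were not run, since they take no further term. Depth limits ADAMTS16, which rests on 17 counts on SPs, and NCAN in LP day 1 sample 4, which had a single count.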
